A study of Mus musculus with 6 samples.

Results

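The 10 SR splicing factor genes examined here, *Srsf1*, *Srsf2*, *Srsf3*, *Srsf4*, *Srsf5*, *Srsf6*, *Srsf7*, *Srsf9*, *Srsf10* and *Srsf11*, were taken by symbol from the 23183 gene symbols of each library. All 10 were found, and all 10 were among the 10326 genes expressed highly enough to be tested. They were measured by mRNA-seq in sorted CD4+CD8+ double positive (DP) thymocytes, an immature stage of T cell development in which a cell carries both coreceptors. The 3 WT libraries came from Nsrp1f/f mice and the 3 cKO libraries from Nsrp1f/f CD4Cre mice, all C57BL/6 at 6 weeks of age. Both groups carry the floxed *Nsrp1* alleles, and the cKO mice also carry Cre driven by *Cd4* regulatory sequence, which becomes active during thymocyte development. The comparison asks how the mRNA levels of the SR family stand in DP thymocytes in which NSrp70, a speckle protein that takes part in splice site choice, is targeted.

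SR proteins carry 1 or 2 RNA recognition motifs (RRMs) at the N-terminal side and a region rich in arginine and serine at the C-terminal side. They bind exonic enhancer sequences, help the U1 and U2 particles to recognise splice sites, and many of them take part in mRNA export and translation as well. Their activity and location depend on phosphorylation of the arginine and serine region by SRPK and CLK kinases. Many SR genes hold an ultraconserved exon or intron whose inclusion or retention gives a transcript with an early stop codon, which nonsense-mediated decay (NMD) removes, and several SR proteins are known to promote that splicing in their own transcripts. In T cells, SR proteins are known for their part in the splicing of *Ptprc*, which encodes CD45.

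Values are FPKM (fragments for each kilobase of transcript, relative to the depth of the library), 1 per gene symbol and library, so a level below sums the isoforms of a gene and says nothing of exon inclusion. Differences are cKO minus WT on the log2(FPKM + 1) scale, with the standard error (SE) and the Benjamini-Hochberg adjusted p of limma over all tested genes. Nothing in the labels states that the libraries came from separate animals, and the p-values therefore measure only the spread between these libraries. The WT libraries differed from each other by little more than counting noise, with a chi-square per gene of 1.51 to 1.61 for a pair, while cKO pairs had 27.3 to 62.2. The estimated depth was 20.7 to 20.9 M mapped fragments (M, mega) in WT and 13.2 to 20.7 M in cKO. *Nsrp1*, listed under its older symbol *Ccdc55*, had an FPKM of 20.2, 20.7 and 21.1 in WT 1, 2 and 3 and of 17.7, 15.8 and 15.0 in cKO 1, 2 and 3, a log2 difference of -0.34 (SE 0.077, adjusted p = 0.00675 from limma). That value covers the whole gene, so exons cannot be told apart, and how complete the deletion was cannot be read from it. *Xist* was above 69 in every WT library and below 6 in every cKO library, and *Ddx3y* of chromosome Y was at 0 in all 3 WT libraries and at 26.2 or more in cKO, so sex and genotype cannot be told apart. None of the 8 DP markers was absent, and *Cd4* lay at 486 to 487 FPKM in WT and at 566 to 723 in cKO. In bulk RNA, fewer cells of a type and less RNA per cell cannot be told apart.

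Of the 10 SR genes, *Srsf3* and *Srsf7* were higher in cKO, *Srsf4*, *Srsf6* and *Srsf9* were lower, and 5 did not pass the test. In this fit, the 2 that rose have a single RRM and the 3 that fell have 2 RRMs. These counts stand against a wide background, since 35.8% of all tested genes were called higher in cKO and 29.8% lower. The median log2 difference over the 10 SR genes was 0.045, beside 0.039 over all tested genes. All 3 cKO libraries lay above all 3 WT libraries for 5 SR genes and below them for 3, whereas 39.2% and 33.3% of all tested genes did so. The split by RRM did not hold under every scaling. Quantile normalization and scaling to the same FPKM total called 0 SR genes higher. Both called *Srsf2* and *Srsf11*, which have a single RRM, lower, and *Srsf1* as well. These settings called 29.4% and 59.9% of all tested genes lower.

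**Figure D1:**
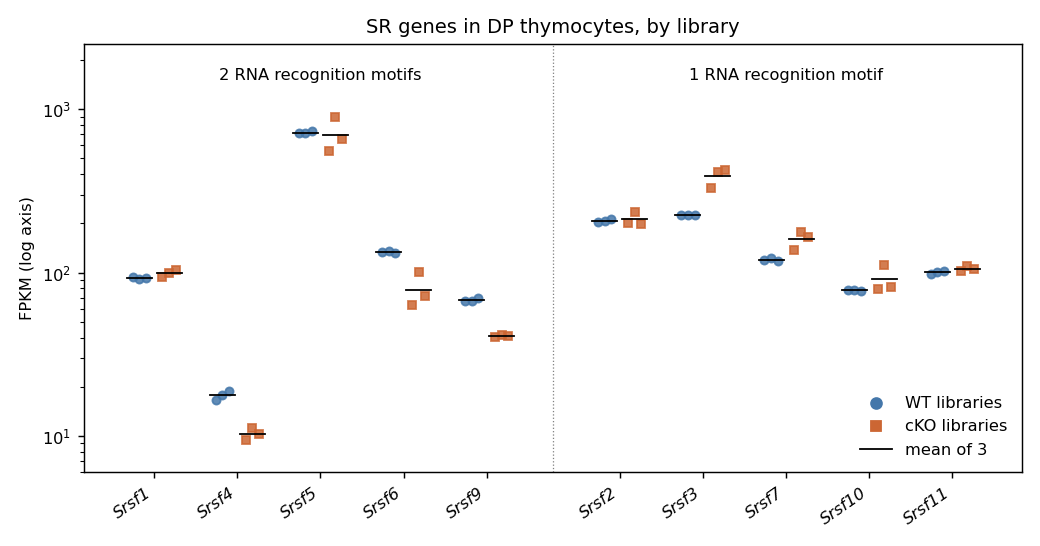
FPKM on a log axis for each of the 10 SR genes in the 3 WT (circles) and 3 cKO (squares) libraries, with black lines at the mean of each group. All cKO libraries lie above WT for *Srsf3* and *Srsf7*, which passed the test, and for *Srsf1*, *Srsf10* and *Srsf11*, which did not. They lie below WT for *Srsf4*, *Srsf6* and *Srsf9*, which passed. The WT points of each gene lie closer together than the cKO points for most genes.

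The SR genes whose level differed are shown first with the sequence by which their annotated NMD transcripts end early. In GENCODE release 21 on GRCm38, the assembly of mm10, 9 of the 10 SR genes have a transcript annotated for NMD, against 29.9% of the tested genes with an annotation, and 8 of 10 have a retained intron transcript, against 60.6%. For *Srsf3*, *Srsf7*, *Srsf4* and *Srsf9*, 1 annotated NMD transcript includes an exon that holds the stop codon and that all annotated coding transcripts of the gene skip. The 27 bases around that stop codon are shown for these genes because the deposited values cannot separate transcripts that include the exon from those that skip it. The stop codon is in capitals.

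Srsf3: ctcaccaccctcTGAatctgcattagc
Srsf7: agtcagtcgcctTGAttcagaatgtca
Srsf4: catgccccagctTAGagtgcttcaccc
Srsf9: acggattcacagTAGaagtactccgga

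The *Srsf3* exon lies at chr17:29039454-29039909 on the plus strand and is 456 bases long, with the stop beginning at base 32. That of *Srsf7*, at chr17:80204622-80205081 on the minus strand, has 460 bases and its stop begins at base 26. In *Srsf4* the exon at chr4:131884276-131884482 (plus strand) has 207 bases, with the stop at base 113, and in *Srsf9* the exon at chr5:115328347-115328704 (plus strand) has 358 bases, with the stop at base 80. Both exons of the genes that rose are thus longer than those of the genes that fell, and their stops lie nearer to the start of the exon. With 2 genes on each side this is only a description.

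*Srsf6* also has 1 transcript annotated for NMD. No inner exon was found in it that holds the stop codon and overlaps no exon of a coding transcript. A further transcript of *Srsf6* retains an intron of the coding region at chr2:162932143-162933425 (plus strand, 1283 bases). The first and last intron bases, in capitals below, stand in their surroundings at the 2 ends of that intron.

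Srsf6 intron start: gaagccgcaGTgagtccttacccc
Srsf6 intron end: tcccttcatgtgataaAGgtggtggag

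Among the SR genes with a single RRM, *Srsf3* (chr17:29032628-29043373) encodes the smallest SR protein, which binds pyrimidine-rich RNA and hands spliced mRNA to the export factor NXF1. Its FPKM was 224, 226 and 224 in WT 1, 2 and 3, and 329, 414 and 423 in cKO 1, 2 and 3. Every cKO library was above every WT library, with cKO 1 the lowest of the 3. The mean rose by 72.9%, a log2 difference of 0.78 (SE 0.11, adjusted p = 0.000908 from limma). By signed log2 difference *Srsf3* stood at percentile 90.7 of all tested genes. Under quantile normalization the difference was 0.26 and under scaling to the same FPKM total 0.22, and neither passed the threshold. When the mean of WT stood for a single sample, the difference was the same and the adjusted p from limma was 0.0722.

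*Srsf7* (chr17:80200080-80207307) encodes a zinc knuckle SR protein that acts in splicing, export and the choice of polyadenylation site. It measured 119, 122 and 118 FPKM in WT and 138, 178 and 165 in cKO. The groups did not overlap, and cKO 1 again lay nearest to WT. The mean rose by 33.9%, with a log2 difference of 0.41 (SE 0.099, adjusted p = 0.00904 from limma). That call was lost after correction for GC content and length, where the difference was 0.059, and under quantile normalization, where it was 0.026, and its sign turned to -0.15 under the same FPKM total. With the mean of WT as a single sample the adjusted p from limma was 0.202.

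The deposited gene-level values of *Srsf7* cannot be split by isoform, but the study designed primers that can. The pair for *Srsf7* is given here with the product lengths that the annotated transcripts would yield.

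Srsf7 forward: ttttgataggccacctgccc
Srsf7 reverse: acctggatcttgatctcgacct

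These primers would give 302 to 335 bases from the coding transcripts, 786 bases from the NMD transcript with the exon above, and 1176 or 1200 bases from the transcripts that retain the intron at chr17:80204388-80205261. The NMD exon lies inside that intron.

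*Srsf2* (chr11:116849901-116853094), also known as SC35, marks nuclear speckles and recognises exonic enhancers. It lay at 205, 208 and 211 FPKM in WT and at 200, 234 and 199 in cKO. The groups overlapped, with 2 cKO libraries below WT and cKO 2 above it. The log2 difference of 0.016 (SE 0.085, adjusted p = 0.875 from limma) did not pass the threshold.

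*Srsf10* (chr4:135855747-135869908) encodes a protein that represses splicing when dephosphorylated, as in mitosis and after heat shock. Its levels were 77.7, 77.8 and 77.4 FPKM in WT and 79.8, 111 and 81.9 in cKO. All 3 cKO libraries were above WT, but cKO 1 and cKO 3 by little and cKO 2 by much, and the log2 difference of 0.21 (SE 0.12) had an adjusted p of 0.177 from limma. Without cKO 2 the difference was 0.066.

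*Srsf11* (chr3:158010473-158036639), a nuclear SR protein that is linked to U2 snRNP auxiliary factor, was at 98.4, 100.3 and 101.5 FPKM in WT and at 102.1, 109.3 and 104.9 in cKO. The cKO libraries were all above WT, though cKO 1 was less than 1 FPKM above WT 3. The log2 difference was 0.073 (SE 0.062, adjusted p = 0.325 from limma).

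Among the SR genes with 2 RRMs, *Srsf6* (chr2:162931528-162937121) encodes a splicing regulator also called SRp55, whose overexpression is known to alter epidermal differentiation. Its FPKM was 133, 136 and 132 in WT and 63.5, 100.03 and 72.1 in cKO. No cKO library reached the WT range, and cKO 2 was the nearest to it. The mean fell by 41.3%, and the log2 difference was -0.79 (SE 0.15, adjusted p = 0.0035 from limma). When the mean of WT stood for a single sample, the adjusted p from limma was 0.0809, a setting under which 7.21% of all tested genes were called higher and 8.73% lower.

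*Srsf9* (chr5:115327177-115333080), which encodes SRp30c, a close relative of SRSF1, was at 66.8, 66.9 and 69.9 FPKM in WT and at 40.3, 41.8 and 40.9 in cKO. The cKO libraries lay far below WT and close together, with a coefficient of variation of 1.78%, the lowest of the 10 SR genes in cKO. The mean fell by 39.6%, and the log2 difference was -0.71 (SE 0.058, adjusted p = 0.000158 from limma).

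*Srsf4* (chr4:131873617-131901706) encodes SRp75, which has the longest arginine and serine region of the SR proteins with 2 RRMs. It was the least abundant of the 10 mRNAs, with 16.7, 17.8 and 18.8 FPKM in WT and 9.45, 11.2 and 10.2 in cKO. All cKO libraries were below WT. The mean fell by 41.9%, with a log2 difference of -0.73 (SE 0.081, adjusted p = 0.000392 from limma). *Srsf4* rests on an estimated 257 to 806 fragments per library, fewer than any other SR gene.

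*Gm12992*, a noncoding transcript on the other strand, shares 1532 exonic bases with *Srsf4*. It lay at 33.6, 32.3 and 33.4 FPKM in WT and at 19.4, 24.7 and 20.6 in cKO, a log2 difference of -0.60 (SE 0.092, adjusted p = 0.00127 from limma). The kit marks strand, but the strand setting of the counting is not given in the sources used here, so reads of *Srsf4* and *Gm12992* cannot be told apart with certainty. *Srsf2* likewise shares 460 exonic bases with *Mettl23* and 288 with *Mfsd11*, both on the opposite strand. Reads may also be shared with near copies elsewhere. At 90% identity or more over at least 300 bases, *Srsf3* has 5 such annotated genes, of which *Gm12355* is 98.3% identical over 1298 bases, *Srsf10* has 2, and *Srsf5* and *Srsf7* have 1 each. None of these near copies is listed in the files under its GENCODE symbol.

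*Srsf5* (chr12:80945504-80950507), whose mRNA is induced by insulin and during liver regeneration, was the most abundant of the 10. It measured 713, 712 and 729 FPKM in WT and 552, 889 and 654 in cKO. Both cKO 1 and cKO 3 were below WT and cKO 2 was above it, so the groups overlapped, and the log2 difference of -0.069 (SE 0.17, adjusted p = 0.738 from limma) had the largest SE of the family. Without cKO 2 the difference was -0.25 and *Srsf5* was called lower, as were 34.4% of the genes tested in that setting. *Srsf5* was also called lower in 3 other settings, at -0.75 under quantile normalization (adjusted p = 0.00865 from limma), -0.63 under the same FPKM total (adjusted p = 0.0258) and -0.55 after correction for GC content and length (adjusted p = 0.0221), the last of which called 25.1% of its genes lower.

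*Srsf1* (chr11:88047373-88053755), the founding member of the family and known to be needed for T cell development, had 93.5, 91.1 and 93.0 FPKM in WT and 94.3, 99.7 and 103.8 in cKO. The lowest cKO library was less than 1 FPKM above the highest WT library. The log2 difference was 0.10 (SE 0.066, adjusted p = 0.219 from limma). A primer pair of the study spans an intron of *Srsf1* and shows what the gene-level value merges.

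Srsf1 forward: agtggttgtctctggactgcctcc
Srsf1 reverse: ggcttctgctacgactacggcttc

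It would give 281 bases from the 2 coding transcripts that splice that intron and 477 bases from another transcript, annotated as coding, that keeps it. The ratio of these forms cannot be read from the FPKM of *Srsf1*. In cKO DP thymocytes the study reported less of the form with a retained intron, and more *Srsf1* mRNA and protein. That mRNA was measured by quantitative PCR relative to *Gapdh*, and the protein by western blot. In the FPKM values here the difference of *Srsf1* did not pass the threshold.

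**Figure D2:**
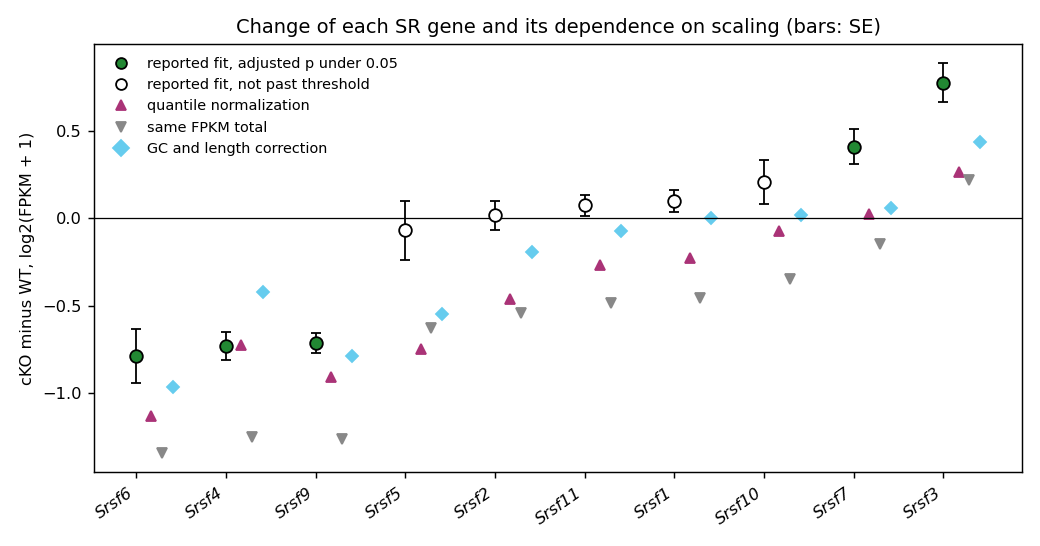
Difference between cKO and WT in log2(FPKM + 1) for each SR gene, ordered by size, as fitted by limma (circles, bars show SE, filled where the adjusted p was under 0.05) and under 3 other treatments of the values. *Srsf6*, *Srsf4* and *Srsf9* were negative and *Srsf3* was positive under all 4, while *Srsf7* at 0.41 went to -0.15 under the same FPKM total.

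How the libraries were scaled moved the whole family. Total FPKM per library lay at 521296 to 531517 for WT, and for cKO at 701396 to 850548. Scaling to the same total moved the median log2 difference of all tested genes from 0.039 to -0.45 and split the calls into 903 higher and 6182 lower, in place of 3693 and 3073, or 8.74% and 59.9% of the tested genes. Relative to that median, *Srsf3* was at 0.67 and *Srsf7* at 0.30, and *Srsf4*, *Srsf6* and *Srsf9* were at -0.80, -0.89 and -0.81. Quantile normalization left the median of all genes at 0.036 but moved that of the SR genes to -0.37, with 7 called lower and 0 higher, where 29.4% and 33.7% of all tested genes were. *Srsf4* and *Srsf9* were called lower in 18 of 18 alternative settings, *Srsf6* in 17, *Srsf3* was called higher in 15 and *Srsf7* in 14. Several settings could hardly alter a call. Without size factors, or with another pseudocount, filter or trend, *Srsf3* stayed at 0.77 to 0.78 and *Srsf7* at 0.40 to 0.41. *Srsf3* lost its call under quantile normalization, the same FPKM total and WT counted as 1 sample. *Srsf7* lost it in these settings and after correction for GC content and length. The same tally over all tested genes is not given here. *Srsf3* has a GC content of 40.0%, the lowest of the 10, and *Srsf4* has the highest with 56.8%. After correction for GC content and length the difference of *Srsf3* was 0.44 and that of *Srsf4* -0.42.

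The makeup of the SR transcript pool, as a share of the FPKM as deposited, is given as a description. A single scaling factor per library leaves these shares as they are. Quantile normalization and the correction for GC content and length alter genes unequally and do not. The 10 genes summed to 1747, 1757 and 1775 FPKM in WT, while cKO 1, 2 and 3 had 1608, 2188 and 1856, and the groups overlapped. As a share of the FPKM total of its library, the family was lower in every cKO library, at 0.203 to 0.312% against 0.329 to 0.337% in WT. Without *Srsf5*, the summed FPKM was higher in every cKO library, at 1056 to 1299 against 1034 to 1046. The direction of the family sum thus depends on the measure. *Srsf3* took 12.8, 12.9 and 12.6% of that sum in WT and 20.5, 18.9 and 22.8% in cKO. *Srsf7* took 6.65 to 6.93% in WT and 8.12 to 8.90% in cKO. The shares of both were thus higher in every cKO library.

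The share of *Srsf6* was 7.62, 7.73 and 7.45% in WT and 3.95, 4.57 and 3.89% in cKO. *Srsf9* held 3.81 to 3.94% in WT and 1.91 to 2.51% in cKO, and *Srsf4* 0.956 to 1.06% and 0.514 to 0.587%. All 3 held a smaller share in every cKO library. *Srsf5* was the largest part in both groups, with 40.5 to 41.1% in WT and 34.3 to 40.6% in cKO.

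**Figure D3:**
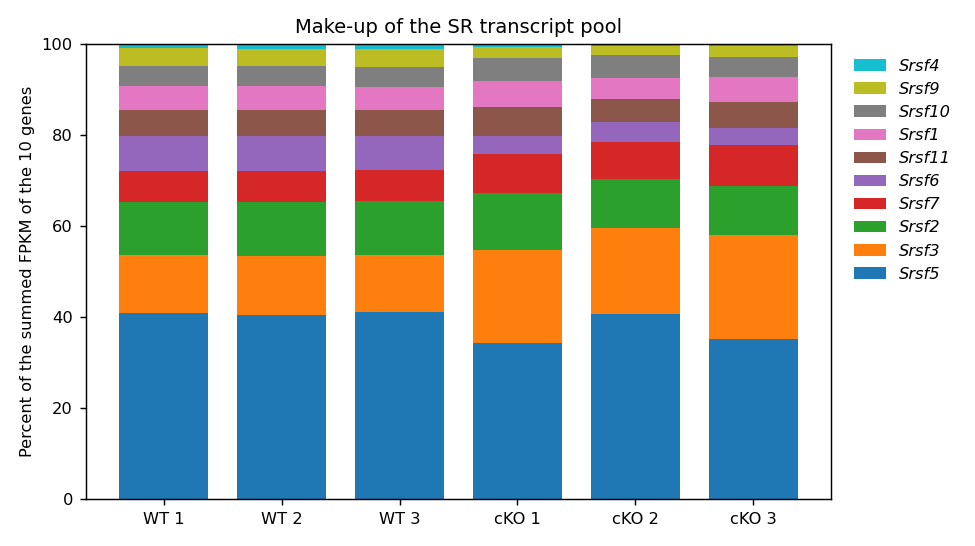
Share of each SR gene, in percent, in the summed FPKM of the 10 genes in each library, stacked from the most to the least abundant. The band of *Srsf3* grows from 12.6 to 12.9% in WT to 18.9 to 22.8% in cKO, the band of *Srsf6* shrinks, and *Srsf4* is the thin band at the top.

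Ratios between members show the same values without the other genes. There were 1.68, 1.67 and 1.69 FPKM of *Srsf3* for each FPKM of *Srsf6* in WT, and 5.19, 4.14 and 5.87 in cKO. For *Srsf3* over *Srsf9* the ratio was 3.21 to 3.38 in WT and 8.17 to 10.3 in cKO. Between the members that fell, the ratios of *Srsf6* to *Srsf9* and of *Srsf6* to *Srsf4* overlapped between the groups.

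The order of the family by FPKM, a measure per length, had no overlaps in WT, where the libraries differed by little more than counting noise. *Srsf5* had a mean of 718, followed by *Srsf3* at 225, *Srsf2* at 208, *Srsf6* at 134, *Srsf7* at 120, *Srsf11* at 100.03, *Srsf1* at 92.5, *Srsf10* at 77.6, *Srsf9* at 67.9 and *Srsf4* at 17.7, and no 2 neighbours overlapped. In cKO, *Srsf6* with a mean of 78.5 stood below *Srsf7*, *Srsf11*, *Srsf1* and *Srsf10*. *Srsf11*, *Srsf1* and *Srsf10*, with means of 105, 99.3 and 91.0, overlapped with their neighbours in the order, and so did *Srsf10* and *Srsf6*, so these places are not separated beyond their spread.

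The cKO libraries differed from each other in most SR genes. cKO 2 had the highest cKO value in 8 of the 10, beside 37.3% of all tested genes, and cKO 1 the lowest in 9, beside 34.8%. The coefficient of variation over the 3 libraries had a median of 1.46% in WT and 11.1% in cKO for the SR genes, and of 3.40% and 12.2% for all tested genes. Counting error at the estimated depth was at most 6.24% for any SR gene and library, the value of *Srsf4* in cKO 1.

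Genes that act on SR proteins were taken from a list of 16 SR kinases and phosphatases. Of the 14 tested, 2 rose, 4 fell and 8 did not pass the test, where 35.8% of all tested genes rose and 29.8% fell, and the median log2 difference was -0.12, beside 0.039 for all tested genes. *Clk2*, a nuclear kinase that releases SR proteins from speckles, had 28.2, 27.9 and 27.6 FPKM in WT and 10.6, 20.6 and 9.42 in cKO. All cKO libraries were below WT, with cKO 2 the nearest, as for *Srsf6*, and the log2 difference was -1.07 (SE 0.25, adjusted p = 0.00765 from limma).

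The kinases *Dyrk2* and *Dyrk1b* also fell, by 0.87 and 0.73 on the log2 scale (adjusted p = 0.00137 and 0.00936 from limma). *Ppp2ca*, the catalytic subunit of phosphatase 2A, had 220 to 222 FPKM in WT and 272 to 305 in cKO and rose by 0.40 (SE 0.081, adjusted p = 0.00402 from limma). *Ppp1cb*, a catalytic subunit of phosphatase 1, rose by 0.19 with an adjusted p of 0.0488 from limma, next to the threshold. When the mean of WT stood for a single sample, 0 of the 14 were called higher and 0 lower, beside 7.21% and 8.73% of all tested genes. Without cKO 2, 4 rose and 8 fell, beside 40.1% and 34.4%, and without any single WT library 1 rose and 4 fell, beside 30.4 to 30.8% and 23.0 to 23.3%.

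SR-related proteins carry an arginine and serine region but mostly lack the domain layout of the SR family. The list of 31 also held *Srsf12*, an SR gene outside the 10, which was too low to be tested, at 0.504 to 0.755 FPKM in WT and 0.055 to 0.249 in cKO. Of the 30 tested, 6 rose, 12 fell and 12 did not pass, with a median of -0.10, where 35.8% of all tested genes rose and 29.8% fell. *Srrm2*, which encodes the large speckle scaffold protein SRm300, was at 72.7, 72.8 and 72.7 FPKM in WT and at 30.9, 33.5 and 25.8 in cKO. The libraries were separated by a wide gap, and the log2 difference was -1.26 (SE 0.097, adjusted p = 0.000146 from limma).

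*Scaf1* fell by 1.00 and *Acin1*, a component of complexes deposited at exon junctions, by 0.87 on the log2 scale (adjusted p = 0.000868 and 0.000114 from limma). *U2af1*, the subunit of the U2 auxiliary factor that reads the 3′ splice site AG, had 198 to 202 FPKM in WT and 282 to 350 in cKO, a log2 difference of 0.65 (SE 0.096, adjusted p = 0.00113 from limma). *Luc7l3* and *Rsrc1* rose by 0.68 and 0.66 (adjusted p = 0.00431 and 0.00267 from limma). Under the same FPKM total 0 of the 30 were called higher and 24 lower, beside 8.74% and 59.9% of all tested genes.

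The 10 genes for the transport of SR proteins and of spliced mRNA were all tested, and 6 rose, 0 fell and 4 did not pass, with a median of 0.38, where 35.8% of all tested genes rose and 29.8% fell. *Magoh*, a core subunit of the exon junction complex, had 158, 156 and 161 FPKM in WT and 262, 308 and 331 in cKO. All cKO libraries lay above WT and the log2 difference was 0.91 (SE 0.099, adjusted p = 0.000364 from limma). *Tnpo3*, the importin that carries phosphorylated SR proteins into the nucleus, was at 36.8, 35.8 and 35.7 in WT and at 90.2, 47.5 and 74.4 in cKO, with a log2 difference of 0.90 (SE 0.21, adjusted p = 0.00827 from limma). *Nxt1*, the partner of the export receptor NXF1, rose by 0.72 (adjusted p = 0.000388 from limma). Under the same FPKM total 1 of the 10 was called higher and 3 lower, beside 8.74% and 59.9%.

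**Figure D4:**
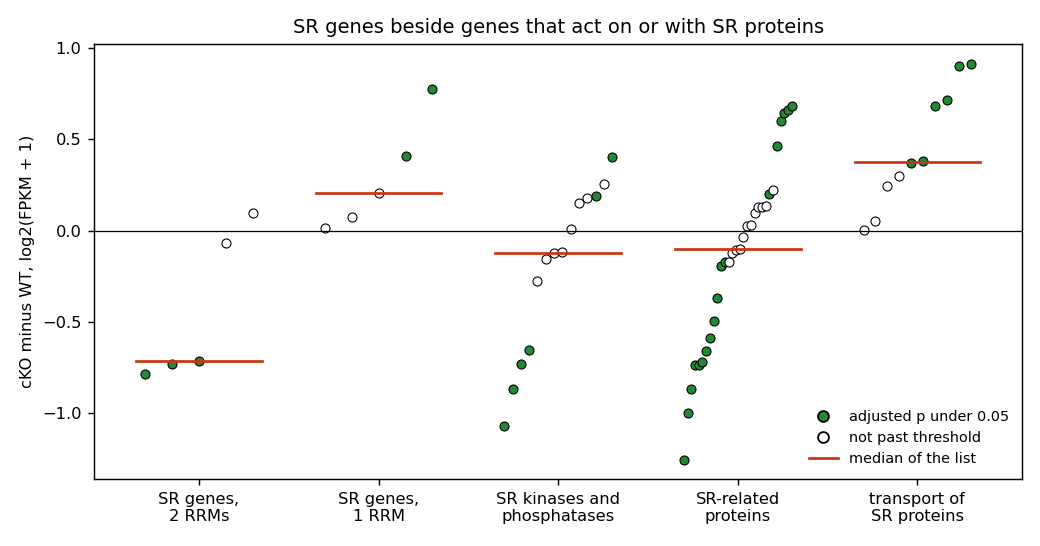
Difference between cKO and WT in log2(FPKM + 1) for each tested gene of the SR family, split by the number of RRMs, and of 3 lists of genes that act on or with SR proteins. Filled circles had an adjusted p under 0.05 and red lines are list medians, which were -0.71, 0.21, -0.12, -0.10 and 0.38 from left to right. The split by RRM did not hold under quantile normalization or the same FPKM total, where *Srsf2* and *Srsf11* were called lower.

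The genes whose pattern over the 6 libraries was most like that of *Srsf3* were *Orc6*, a subunit of the origin recognition complex, *Dpm3*, a subunit of dolichol-phosphate mannose synthase, and *Ddias*. Their root mean square distances from *Srsf3* on the centred log2 scale were 0.027, 0.033 and 0.038. For *Srsf6* the nearest were *Sema4b*, *Fbxo11* and *Ddhd1*, with distances of 0.029, 0.034 and 0.041. *Fbxo11*, which encodes a ubiquitin ligase subunit, had 39.3, 39.6 and 39.1 FPKM in WT and 19.5, 28.9 and 20.8 in cKO, with cKO 2 nearest to WT as for *Srsf6*.

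Other gene lists differed between the groups as well, and their counts stand beside the 35.8% of all tested genes called higher and 29.8% called lower. All 10 proliferation genes were higher in cKO, with a median log2 difference of 1.12 and a sum of 1024 to 1032 FPKM in WT and 2071 to 2396 in cKO. Of 8 markers of mature single positive thymocytes, 7 were lower and 1 was higher, with a median of -1.70, and their sum was 167 to 169 in WT and 135 to 151 in cKO. Of 8 DP markers, 6 were higher and 1 was lower. The 3 tested erythroid markers were higher in cKO, with *Hbb-b1* at 1.29 to 2.00 in WT and 8.86 to 15.7 in cKO. Of 4 tested markers of double negative thymocytes, 3 were lower, with *Notch1* at -0.97, *Hes1* at -0.52 and *Il2ra* at -0.45. Single genes of other lists moved too, with *Cd79b* of the B cell list at 0.52 and *Nkg7* of the natural killer list at -0.77, while 0 of the 3 tested myeloid markers were called. Of the 6 thymic epithelial markers, *Foxn1* and *Krt5* were at 0 in every library, *Psmb11*, *Krt8* and *Aire* were below 0.2 FPKM, and *Epcam*, the only one tested, was at 3.44 to 3.71 in WT and 1.88 to 3.59 in cKO and did not pass the test. The part of these shifts in the levels of the SR genes was not tested.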

How the data were processed

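Poly(A)-enriched directional libraries of 6 samples were sequenced as paired ends by the authors, who mapped the reads to mm10 with TopHat and deposited FPKM values calculated with Cufflinks, 1 for each symbol in each library. Versions of TopHat and Cufflinks, the annotation and the strand setting are not given in the sources used here. Because FPKM values are not counts, the count test of the study was not run. At the same adjusted p threshold, that test called far fewer genes in either direction than the fit used here.

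Of 23183 symbols, 22110 were matched to GENCODE release 21 (GRCm38) directly and 662 through RefSeq synonyms. Sequences were read from GRCm38 and from the study's primer list. Depth was estimated from steps of 1 fragment, with an assumed fragment length of 200. Between 53.2% and 65.2% of low values were then within 0.05 of a whole number of fragments, against 5.3% to 6.5% at other depths, too few for a count test.

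Median-of-ratios size factors (1.00 to 1.01) were divided out, genes were kept if 3 libraries reached an FPKM of 1, which left 10326, and genotype effects on log2(FPKM + 1) were estimated in R 4.3.3 with limma 3.58.1 (lmFit, eBayes with a trend). This scale understates the change of low genes. Calls were made at a Benjamini-Hochberg adjusted p under 0.05. The fit was also run on simulated data in which all genes of a group had the same noise. That run does not show how reliable the calls on the real libraries are. Near copies were found with blastn 2.17.0. Python 3.11.15, numpy 2.4.6, pandas 2.3.3 and matplotlib 3.10.9 were used for summaries.

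The SR genes and gene lists were chosen with earlier results of these data known. All 10 SR genes were named, *Nsrp1*, the up to 3 genes called higher and up to 3 called lower with the largest change in each list, and the 3 genes nearest to *Srsf3* and to *Srsf6*. *Gm12992*, *Mettl23*, *Mfsd11*, *Gm12355* and the check genes were named outside that rule, after their values or overlaps were seen. Alternatives covered scaling, pseudocount, filter, replicate block, trend, library weights, WT counted as 1 sample, GC content and length, and each library left out. Deviations of same-numbered WT and cKO libraries correlated at -0.022, 0.038 and 0.031. Most of the WT deviation was at the size of counting error, so these values cannot decide whether the numbers pair the libraries.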

Additional observations from a re-analysis of the deposited data

How the results depend on the processing

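Of the 10 SR genes, 2 were called higher and 3 lower. These counts became 0 and 7 under quantile normalization and 0 and 7 under the same FPKM total. With the WT libraries counted as 1 sample they were 0 and 2, and after correction for GC content and length 1 and 4. That correction called 31.9% of its tested genes higher and 25.1% lower. Over all tested genes, 3693 were called higher and 3073 lower, against 903 and 6182 under the same FPKM total and 744 and 901 with WT counted as 1 sample. Leaving out 1 library at a time gave 2 SR genes higher each time and 3 to 4 lower, and 3071 to 4111 genes higher and 2324 to 3526 lower in all. The cause of these shifts was not tested.

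Over the 18 alternatives, signs turned for *Srsf1*, *Srsf2*, *Srsf5*, *Srsf10*, *Srsf11* and *Srsf7*, the last at -0.15 under the same FPKM total. That scaling lowers the cKO values of all genes by construction, and relative to the median of all genes under it *Srsf7* was at 0.30, *Srsf10* at 0.11, *Srsf1* at -0.0049, *Srsf11* at -0.031 and *Srsf2* at -0.090. Under quantile normalization *Srsf1* was at -0.23, *Srsf2* at -0.46, *Srsf10* at -0.071 and *Srsf11* at -0.27. Under the same FPKM total they were at -0.46, -0.54, -0.35 and -0.48. In both settings *Srsf1*, *Srsf2* and *Srsf11* were called lower, as were 29.4% and 59.9% of all tested genes. After correction for GC content and length, *Srsf2* was at -0.19 and *Srsf11* at -0.073. Without 1 library, *Srsf2* ranged from -0.051 to 0.057 and *Srsf5* from -0.25 to 0.089, negative for *Srsf2* without cKO 2 and positive for *Srsf5* without cKO 1.

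*Srsf3* lost its call in 3 of 18 settings, with adjusted p from limma between 0.000212 and 0.147 over all of them, and *Srsf7* in 4. Several of the 18 settings hardly altered the values, so these counts do not measure how firm a call is. Of the 14 kinases and phosphatases tested, 0 were higher and 7 lower under quantile normalization, beside 33.7% and 29.4% of all tested genes. Under the same FPKM total, 0 were higher and 11 lower, beside 8.74% and 59.9%. Of the 30 SR-related genes tested, 2 were higher and 19 lower under quantile normalization, beside the same 33.7% and 29.4%. With WT counted as 1 sample, fewer SR-related and transport genes were called, as were fewer of all tested genes. With the replicate block, 2 SR genes were higher and 3 lower, and no SR call changed, while 3513 and 2954 of all genes were called higher and lower. At the fragments estimated for *Srsf4*, counting error reached 6.24%, and FPKM values do not resolve isoforms.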
